A study of Homo sapiens with 18 samples.

Results

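Sorted MCF10A-CT cells were set against unsorted MCF10A-CT cells, on 6 of the 18 Affymetrix HG-U133 Plus 2.0 arrays of the series. MCF10A is an established, immortalised and nonmalignant human mammary epithelial cell line, and MCF10A-CT is the control culture kept in standard medium, with neither BMP2 nor IL6. The 4 sorted arrays hold cells stained for the surface peptidase CD10 and separated by flow cytometry, with 2 arrays of CD10- cells and 2 of CD10+ cells. The 2 unsorted arrays hold cells that were trypsinized, washed and frozen with no staining or sorting step. From each sample 50 ng of total RNA was amplified from the 3′ end and labelled with biotin. The other 12 arrays hold the same 3 populations (CD10-, CD10+ and unsorted, 2 arrays each) of MC26 and M1B26. Both lines were derived from MCF10A by long exposure to BMP2 and IL6, and M1B26 was expanded from soft-agar clones of treated BMPR1B+ cells. IL6 was given at 10 ng/ml, and for BMP2 the labels give both 5 and 10 ng/ml. Staining, sorting, the time these took and the lack of freezing all go with the sorted label, so their parts in a difference cannot be told apart. CD10- and CD10+ cells were weighted equally, whatever their shares in the culture.

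A culture of MCF10A cells is a mixture of cells in every phase of the cell cycle. Genes for DNA replication are transcribed around the entry into S phase, largely under E2F transcription factors, and genes for mitosis follow in G2 under the FOXM1 and B-MYB complexes. When cells leave the cycle, both groups are repressed, while inhibitors of cyclin-dependent kinases and targets of FOXO factors rise. Detachment from the plate, handling and stress can also induce immediate early genes within minutes, and NF-kB targets somewhat later.

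Values are intensities, as the authors deposited them, and differences are sorted minus unsorted on the scale of log2(intensity + 1), with the SE from limma. A gene passed when limma's Benjamini-Hochberg adjusted p over all 12166 genes tested was under 0.05. With 2 arrays per group, the number of arrays limits the precision, and the median SE of a difference was 0.257. The labels call the 2 arrays of a group biological replicates but do not say whether they came from separate cultures. P-values therefore measure only the spread between arrays of a group, which limma pooled over all 9 groups of the 18 arrays. The fit counts CD10- and CD10+ arrays of one number as separate, although their deviations from group means correlated at 0.64 in MCF10A-CT. With each such pair averaged, the median SE was 0.272, and 1883 genes passed in MCF10A-CT, against 2706 in the main fit. In bulk RNA, fewer cells that express a gene and less of its RNA per cell cannot be told apart.

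Sorted arrays resembled each other by replicate number more than by CD10 status. The CD10- and CD10+ arrays numbered 1 correlated at 0.983 over the genes tested, and those numbered 2 at 0.980, against 0.949 between both CD10- arrays and 0.958 between both CD10+ arrays. The sorted arrays numbered 2 lay farther from the unsorted arrays (correlations of 0.897 to 0.912) than those numbered 1 (0.944 to 0.951). The CD10- and CD10+ arrays numbered 1 are called sort 1 and those numbered 2 sort 2, although the labels do not say that each pair was sorted together, and counts are also given for each of these pairs alone.

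The ACTB ratio, the poly-A spikes and the 18S signal of the control probe sets set sorted and unsorted arrays apart in all 3 lines. In the ACTB control, the 3′ over 5′ ratio of intensities, which grows when labelled copies are shorter, was 1.24 and 1.34 in CD10- cells and 1.31 and 1.23 in CD10+ cells, against 1.96 and 2.14 in unsorted cells. The difference was -0.68 on the log2 scale, and the groups did not overlap. A two-sided exact permutation test gave p = 0.0667, the smallest that 4 arrays against 2 allow. The difference was -0.62 in MC26 and -0.74 in M1B26, and over the 3 lines it was -0.68 (exact permutation within lines, two-sided, p = 0.000296, adjusted p = 0.000494 over 5 control measures). The GAPDH control ratio was 0.933 to 0.963 in sorted and 0.964 to 1.10 in unsorted MCF10A-CT arrays, a difference of -0.12, and over the 3 lines p was 0.122 by the same exact test. In MC26 and M1B26 the GAPDH ratio differed by -0.017 and -0.011.

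The spiked-in poly-A RNAs, added before amplification, had a geometric mean of 257 to 363 on the sorted MCF10A-CT arrays, against 84.9 and 88.6 on the unsorted ones, which is 3.41-fold higher. The 3′ control probe set of 18S ribosomal RNA read 4109 to 5408 on sorted arrays, against 1235 and 766 on unsorted arrays, a difference of 2.34 on the log2 scale. Both measures were also higher in sorted cells over the 3 lines (adjusted p = 0.000494 for each, exact permutation within lines). The labelled controls added at hybridization were dimmer on sorted MCF10A-CT arrays, at 1327 to 1674, against 1694 and 2986 on unsorted arrays. This is a log2 difference of -0.63. For MC26 it was -0.37, without overlap. The M1B26 arrays overlapped, with a difference of -0.13 (exact permutation, p = 0.6). Over the 3 lines these controls differed by -0.38 (exact permutation within lines, p = 0.012, adjusted p = 0.0148). The part of the spikes and of the ribosomal signal in the gene differences was not tested, and fits with the ACTB and GAPDH ratios are given with the counts.

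**Figure D1:**
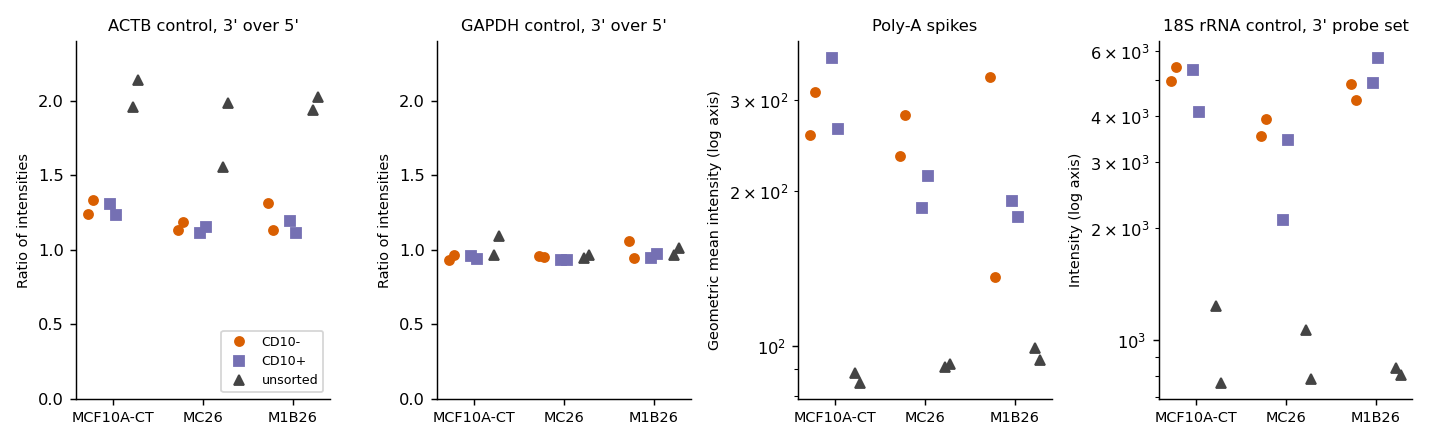
Control measures per array, as points, in the 3 lines, with CD10- and CD10+ sorted cells to the left of unsorted cells. From the left, the panels show the ACTB and GAPDH 3′ over 5′ intensity ratios, the geometric mean intensity of the poly-A spikes and the 18S rRNA 3′ intensity, the last 2 on log axes; sorted and unsorted arrays do not overlap in the ACTB, poly-A and 18S panels, while GAPDH ratios lie between 0.930 and 1.10 throughout.

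In MCF10A-CT, 2706 of 12166 genes passed (22.2%), of which 801 were higher (6.58%) and 1905 lower (15.7%) in sorted cells. Of these, 453 were higher and 903 lower by at least 2-fold. The median over all genes was -0.13, and scaling moved this balance: with quantile normalization 1383 genes were higher and 1594 lower, and with each array centred on its median 1421 were higher and 1498 lower. All 4 sorted arrays lay above both unsorted arrays in 2095 genes (17.2%) and below both in 3602 (29.6%). Of 2616 further probe sets for the genes that passed, 85.1% had the sign of the probe set tested. The sort numbered 1 alone gave 287 higher and 720 lower genes, and the sort numbered 2 alone gave 1092 and 2884. Without the first unsorted array 334 were higher and 525 lower, and without the second 282 and 858.

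With the ACTB ratio of each array added to the fit as a covariate, no gene passed, and 911 were under an unadjusted p of 0.05. The slope of that covariate rests on the arrays within each group of 2, and the median SE was 0.645 in that fit. With the GAPDH ratio as covariate 258 genes were higher and 468 lower.

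Genes of mitosis fell in sorted cells almost without exception. Of 65 G2-M genes tested, none rose and 64 fell in sorted cells, with a median of -1.85, against 15.7% lower and a median of -0.13 over all genes. In these 64, all 4 sorted arrays lay below both unsorted arrays. Their mean level, as a log2 deviation from the mean of the 18 arrays, was -1.37 and -1.67 in CD10- cells and -0.97 and -1.18 in CD10+ cells, against 0.50 and 0.55 in unsorted cells. In separate contrasts of the same fit, against the same unsorted arrays, the medians were -2.13 in CD10- cells, with 64 lower and none higher, and -1.64 in CD10+ cells, with 61 lower and none higher. Over all genes 9.19% were lower and 3.94% higher in CD10- cells, and 10.1% were lower and 3.62% higher in CD10+ cells.

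HMMR, a hyaluronan receptor that also binds the mitotic spindle, had intensities of 375 and 210 in CD10- cells and 471 and 393 in CD10+ cells, against 1701 and 1937 in unsorted cells. Its difference was -2.38 ± 0.23 (adjusted p = 7.62e-05, limma), and the highest sorted array was well under the lowest unsorted one. BUB1B, the spindle checkpoint kinase BubR1, was 197 and 121 in CD10- cells and 266 and 249 in CD10+ cells, against 1343 and 1261 in unsorted cells (-2.70 ± 0.31, adjusted p = 0.000140). PRC1, which bundles microtubules of the central spindle, was 428 and 373 in CD10- cells and 579 and 568 in CD10+ cells, against 1973 and 2164 in unsorted cells (-2.11 ± 0.24, adjusted p = 0.000153). In these 3 genes both CD10- arrays lay below both CD10+ arrays, and all sorted arrays lay below the unsorted ones. All 3 belong to ENI10, the signature that the study drew from genes higher in CD10+ cells on these arrays. Their order by CD10 status is therefore not independent of that choice.

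The kinetochore protein NUF2 fell by 1.93, CKS1B, a subunit that binds cyclin-dependent kinases, by 1.41, and the phosphatase CDC25C, which activates CDK1 at mitotic entry, by 2.02. PLK1, the polo-like kinase of mitosis, named here for its promoter, was 48.4 and 36.7 in CD10- cells and 32.6 and 45.3 in CD10+ cells, against 141 and 290 in unsorted cells. The member that did not pass was CDC25B, named after its value was seen, with a difference of -0.06 and overlapping arrays.

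Genes of DNA replication moved in the same direction. Of 57 G1-S and DNA replication genes tested, 1 rose and 52 fell, with a median of -1.90, against 6.58% higher and 15.7% lower over all genes. TYMS, thymidylate synthase, was 745 and 400 in CD10- cells and 940 and 527 in CD10+ cells, against 3097 and 2986 in unsorted cells (-2.29 ± 0.28, adjusted p = 0.000195, limma). The DNA ligase LIG1 fell by 2.17, the clamp loader subunits RFC2, RFC3 and RFC4 by 2.01, 2.16 and 1.30, and the primase subunit PRIM2 by 1.52. The gene that rose was RFC5, another clamp loader subunit, at 541 and 633 in CD10- cells and 534 and 616 in CD10+ cells, against 432 and 342 in unsorted cells (0.59 ± 0.20, adjusted p = 0.0426), named after its values were seen.

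In this list the sorts differed more than in the G2-M list. Its mean level was -1.14 and -2.01 in CD10- cells and -0.91 and -1.78 in CD10+ cells, against 0.50 and 0.33 in unsorted cells, so that both arrays numbered 2 were lowest. With sort 1 alone 39 genes fell, with sort 2 alone 54 fell, without the first unsorted array 32 fell, and without the second 41 fell. The G2-M list had 62, 64, 60 and 60 lower genes in the same order of settings. With the ACTB ratio as covariate, no gene of either list passed, and the medians were -0.76 for G2-M genes and -0.53 for G1-S genes.

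The 15 largest decreases were nearly all of this kind. Among genes with a mean of at least 100 in the higher group and no overlap, they ran from -2.83 to -3.43. MCM10, needed to start replication forks, was 79.1 and 6.99 in CD10- cells and 98.3 and 22.2 in CD10+ cells, against 415 and 338 in unsorted cells (-3.43 ± 0.82, adjusted p = 0.00938, limma). RRM2, the small subunit of ribonucleotide reductase, was 464 and 156 in CD10- cells and 761 and 254 in CD10+ cells, against 3162 and 3104 in unsorted cells (-3.18 ± 0.57, adjusted p = 0.00214). Both genes were lowest in the arrays numbered 2, and in neither did any sorted array reach an unsorted one.

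ZWINT, of the outer kinetochore, was 289 and 110 in CD10- cells and 393 and 189 in CD10+ cells, against 1913 and 1846 in unsorted cells (-3.09 ± 0.44, adjusted p = 0.000490, limma). The others were RAD51AP1 and GEN1 of recombination, SKA1 of the kinetochore, the replication factors CDC45, CDC6, GINS2 and FEN1, the phosphatase CDC25A, the histone chaperone ASF1B, UHRF1 of maintenance methylation, TCF19 and CFAP251. CFAP251, a gene of cilia and flagella, was the one without a role in the cell cycle known here, at 19.3 and 42.2 in CD10- cells and 30.8 and 36.2 in CD10+ cells, against 227 and 341 in unsorted cells (-3.13 ± 0.30, adjusted p = 7.62e-05).

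**Figure D2:**
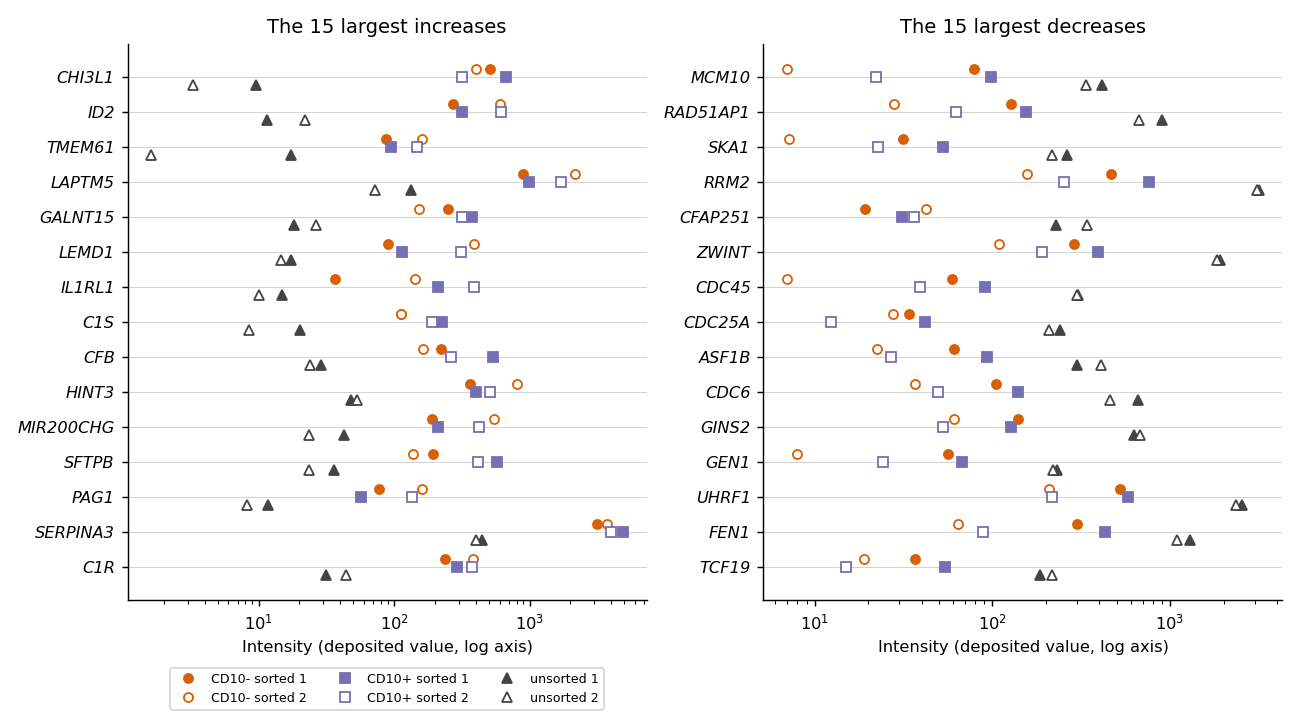
Intensity on each of the 6 MCF10A-CT arrays (log axis) of the 15 genes with the largest increases (left) and the 15 with the largest decreases (right), with sorted cells above unsorted cells in each row and filled symbols for arrays numbered 1. In no gene do sorted and unsorted arrays overlap, as the choice of genes required; in MCM10 the sorted arrays span 6.99 to 98.3.

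Promoters of both cell cycle lists were searched for the elements known from their phase. Windows of 250 bases before to 50 bases after the start were taken from RefSeq (GRCh38.p14), and both strands were searched. The cell cycle genes homology region (TTTGAA or TTCGAA), where the repressive DREAM complex and its activating counterparts bind, was found in 39 of 56 promoters of G2-M genes (69.6%), against 16.6% of all 27305 promoters. The E2F site (TTTGGCGC, TTTCCCGC or TTTCGCGC) was found in 24 of 47 promoters of G1-S genes (51.1%), against 2.79% of all. The CCAAT box (CCAAT), bound by NF-Y, was in 76.8% of G2-M and 57.4% of G1-S promoters, against 35.7% of all. A match is a description of letters and not a site shown to be bound. The lists were written from known functions, so these shares describe the lists and not the sorted cells: of all 1605 promoters of genes that fell, 17.1% held the homology region and 7.98% the E2F site, against 11.5% and 4.59% among genes tested.

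The promoters of 4 mitotic genes and 3 replication genes that fell are shown here because the element lies within 50 bases of the start in each. Each line gives the 120 bases before the start, 5′ to 3′ on the gene's strand, with the match in capitals.
PRC1 (chr15:90994536-90994655, minus strand): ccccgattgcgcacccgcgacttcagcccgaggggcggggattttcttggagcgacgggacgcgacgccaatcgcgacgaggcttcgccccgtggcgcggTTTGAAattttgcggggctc
PLK1 (chr16:23678769-23678888, plus strand): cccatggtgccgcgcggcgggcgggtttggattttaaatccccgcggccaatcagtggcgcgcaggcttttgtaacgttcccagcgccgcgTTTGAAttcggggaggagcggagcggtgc
BUB1B (chr15:40160949-40161068, plus strand): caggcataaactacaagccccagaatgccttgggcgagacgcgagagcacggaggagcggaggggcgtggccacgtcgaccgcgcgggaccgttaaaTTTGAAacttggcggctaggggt
ZWINT (chr10:56361260-56361379, minus strand): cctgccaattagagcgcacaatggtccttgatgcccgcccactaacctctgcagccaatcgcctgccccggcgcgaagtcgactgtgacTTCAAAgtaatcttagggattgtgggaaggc
GINS2 (chr16:85688955-85689074, minus strand): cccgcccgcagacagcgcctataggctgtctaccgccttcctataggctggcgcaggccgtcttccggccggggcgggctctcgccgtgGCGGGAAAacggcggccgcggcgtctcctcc
TYMS (chr18:657533-657652, plus strand): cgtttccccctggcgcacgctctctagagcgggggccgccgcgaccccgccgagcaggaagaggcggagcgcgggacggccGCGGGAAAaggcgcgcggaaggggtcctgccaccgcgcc
CDC25A (chr3:48188418-48188537, minus strand): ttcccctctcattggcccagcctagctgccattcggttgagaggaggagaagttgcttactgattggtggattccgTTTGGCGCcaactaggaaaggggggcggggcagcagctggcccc
In PRC1, PLK1 and BUB1B the homology region begins 20, 29 and 23 bases before the start and reads forward. In ZWINT it begins 31 bases before the start on the other strand. The E2F letters begin 31, 39 and 44 bases before the start of GINS2, TYMS and CDC25A, on the other strand in GINS2 and TYMS.

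Both cell cycle lists were also measured in the derived lines. Sorted minus unsorted medians of G2-M genes were 0.12 in MC26 and 0.16 in M1B26, where 0 and 1 of 65 genes were higher and 0 and 1 lower (over all genes 0.518% were higher and 0.304% lower in MC26, 0.822% in either direction, and 2.56% were higher and 1.65% lower in M1B26, 4.22% in either direction). For G1-S genes the medians were 0.48 and 0.63, with 0 and 5 genes higher and none lower in either line. The difference between lines was itself tested: 62 of 65 G2-M genes had a more negative difference in MCF10A-CT than in MC26, and 62 than in M1B26. For G1-S genes the numbers were 47 and 54 of 57. Over all genes 4.04% were more negative and 2.04% more positive against MC26 (6.07% in either direction), and 9.14% and 2.73% against M1B26 (11.9%).

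These calls between lines depended on how the sorted arrays were counted. With CD10- and CD10+ arrays of one number averaged into 1 replicate, 4 G2-M and 1 G1-S genes were more negative in MCF10A-CT than in MC26, and 36 and 33 than in M1B26. Over all 12166 genes, 16 were more negative against MC26 and 369 against M1B26 in that fit. With an unmoderated test the numbers were also 4 and 1 against MC26, and 34 and 23 against M1B26. There, 25 genes were more negative against MC26 and 418 against M1B26 over all genes. The list medians of the difference between lines were -2.04 and -2.32 against MC26 and -2.04 and -2.55 against M1B26 in each of these fits. Leaving out the first unsorted array of the other line, 22 G2-M and 6 G1-S genes were called against MC26, and 13 and 3 against M1B26. If the first unsorted MCF10A-CT array was left out, the numbers were 27 and 9 against MC26 and 38 and 32 against M1B26, and without the second 25 and 13, and 38 and 38.

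HMMR, for example, differed between sorted and unsorted cells by -0.08 in MC26 and by -0.15 in M1B26, and BUB1B by -0.19 and by -0.12. The unsorted arrays of the derived lines were less alike in these lists than those of MCF10A-CT. The G2-M level was -0.24 and 0.73 on the unsorted MC26 arrays and -0.12 and 0.62 on the unsorted M1B26 arrays. Without the first unsorted array of MC26 or of M1B26, 140 and 98 genes passed over all genes in the tests between lines, against 739 and 1444 with every array. With the ACTB ratio as covariate these tests gave 640 and 1648 genes.

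**Figure D3:**
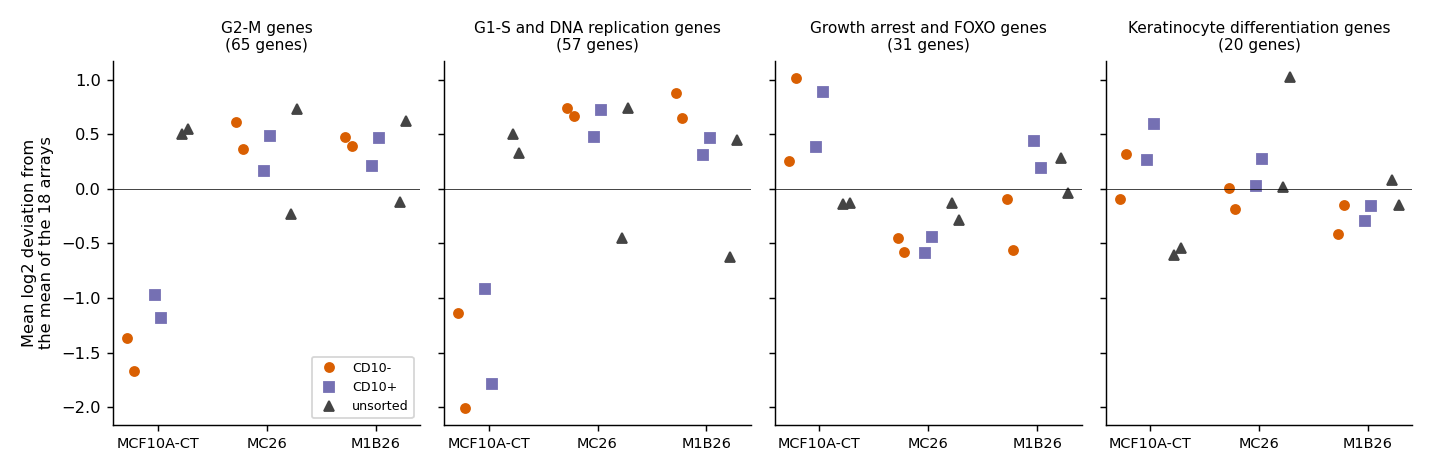
Mean level of 4 gene lists on each of the 18 arrays, as the log2 deviation of the list's genes from their mean over all arrays, with CD10- and CD10+ sorted cells to the left of unsorted cells in each line. In MCF10A-CT the sorted arrays lie at or below -0.91 in both cell cycle lists and the unsorted arrays at or above 0.33, while sorted arrays of MC26 and M1B26 lie above 0.

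**Figure D4:**
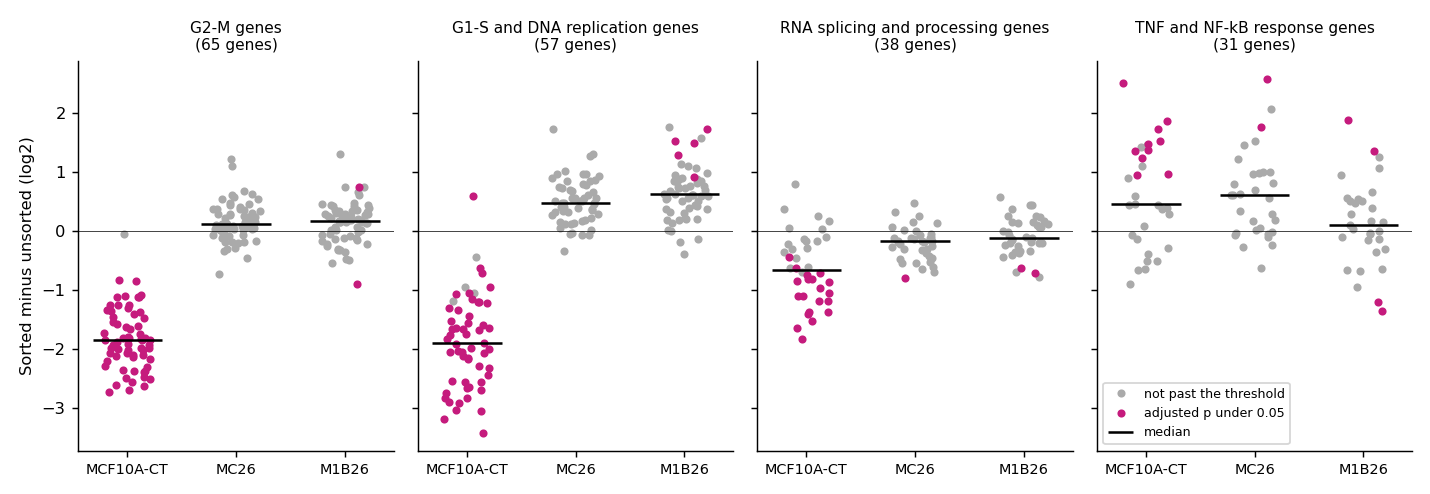
Sorted minus unsorted difference (log2) of each gene of 4 lists in the 3 lines, with coloured points for genes past the threshold and a bar at the median. G2-M and G1-S medians are -1.85 and -1.90 in MCF10A-CT, 0.12 and 0.48 in MC26 and 0.16 and 0.63 in M1B26.

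Of 31 growth arrest and FOXO genes tested, 10 rose, none fell and 21 did not pass, with a median of 0.56, against 6.58% higher over all genes. YPEL5, of a conserved family present at the spindle and in a ubiquitin ligase complex, was 636 and 1271 in CD10- cells and 745 and 1129 in CD10+ cells, against 325 and 275 in unsorted cells (1.60 ± 0.29, adjusted p = 0.00218, limma). CDKN1C, the inhibitor p57 of cyclin-dependent kinases, was 516 and 394 in CD10- cells and 641 and 362 in CD10+ cells, against 89.4 and 112 in unsorted cells (2.21 ± 0.50, adjusted p = 0.00667). GADD45B, a stress sensor, was 141 and 854 in CD10- cells and 241 and 502 in CD10+ cells, against 45.8 and 99.6 in unsorted cells (2.35 ± 0.56, adjusted p = 0.00977). In all 3 genes the groups did not overlap, and YPEL5 and GADD45B were highest in sort 2 whereas CDKN1C was highest in sort 1.

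CDKN2D, the inhibitor p19 of CDK4 and CDK6, was at 22.4 to 61.0 in sorted cells, against 12.1 and 3.75 in unsorted cells, where it lay near background. YPEL3 rose by 2.05 ± 0.46 and KLHL24 by 1.32 ± 0.38. The inhibitors p21 and p27 did not pass: CDKN1A differed by 0.56 ± 0.39 and CDKN1B by 0.27 ± 0.29, and both are named after their values were seen. With the averaged pairs 6 genes of the list rose, against 4.19% higher over all genes. The list median was 0.46 with sort 1 alone and 0.80 with sort 2 alone, against -0.08 and -0.17 over all genes. Without the first and without the second unsorted array it was 0.68 and 0.59, against -0.09 and -0.19 over all genes.

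The 15 largest increases were taken by the same rule as the decreases. CHI3L1, a secreted chitinase-like glycoprotein, was 512 and 400 in CD10- cells and 675 and 316 in CD10+ cells, against 9.57 and 3.26 in unsorted cells. The fitted difference was 6.09 ± 0.79 (adjusted p = 0.000334, limma). Since the unsorted mean lies under the filter level of 14.3, the size is uncertain, and set against that level the gene was at least 29.9-fold higher. A second probe set read 212 to 513 in sorted and 0.588 and 1.00 in unsorted cells.

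Complement genes stood among them. C1S and C1R encode the proteases of the first complement component, and CFB is factor B of the alternative pathway. C1S was 113 and 113 in CD10- cells and 226 and 192 in CD10+ cells, against 20.3 and 8.48 in unsorted cells (adjusted p = 9.53e-05, limma), which is at least 10.1-fold higher against the filter level. C1R was 238 and 384 in CD10- cells and 291 and 378 in CD10+ cells, against 31.3 and 44.3 in unsorted cells (3.05 ± 0.31, adjusted p = 8.61e-05). CFB was 220 and 164 in CD10- cells and 541 and 264 in CD10+ cells, against 28.9 and 23.9 in unsorted cells (3.30 ± 0.37, adjusted p = 0.000135). In these genes the CD10+ array exceeded the CD10- array of its sort, except in C1R of sort 2. All of them belong to ENI10, which the study chose for higher levels in CD10+ cells on these arrays. This order is therefore not independent of that choice. That sorted and unsorted arrays did not overlap was required by the ranking rule.

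SERPINA3, an acute phase inhibitor of proteases, was 3128 and 3750 in CD10- cells and 4877 and 3955 in CD10+ cells, against 445 and 400 in unsorted cells (3.20 ± 0.44, adjusted p = 0.000441, limma). SFTPB, the surfactant protein B, was 193 and 138 in CD10- cells and 571 and 419 in CD10+ cells, against 36.3 and 23.6 in unsorted cells (3.23 ± 0.27, adjusted p = 5.48e-05). ID2, an inhibitor of basic helix-loop-helix factors, was 272 and 599 in CD10- cells and 319 and 614 in CD10+ cells, against 11.6 and 22.1 in unsorted cells (4.64 ± 1.11, adjusted p = 0.00963). Sorted cells exceeded unsorted cells on every array in these genes, as the ranking rule required, and in ID2 the arrays of sort 2 were highest.

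LAPTM5, a lysosomal membrane protein best known from blood cells, was 892 and 2167 in CD10- cells and 990 and 1718 in CD10+ cells, against 134 and 72.7 in unsorted cells (3.76 ± 0.73, adjusted p = 0.00311, limma). IL1RL1, the receptor of IL33, was 36.8 and 144 in CD10- cells and 210 and 387 in CD10+ cells, against 14.9 and 10.1 in unsorted cells, where it was near background. The remaining genes were TMEM61, the glycosyltransferase GALNT15, LEMD1, the nucleotide hydrolase HINT3, MIR200CHG, which hosts miR-200c and miR-141, and the adaptor PAG1. Of 24 further probe sets of the 30 genes with the largest changes, 24 had the same sign.

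**Figure D5:**
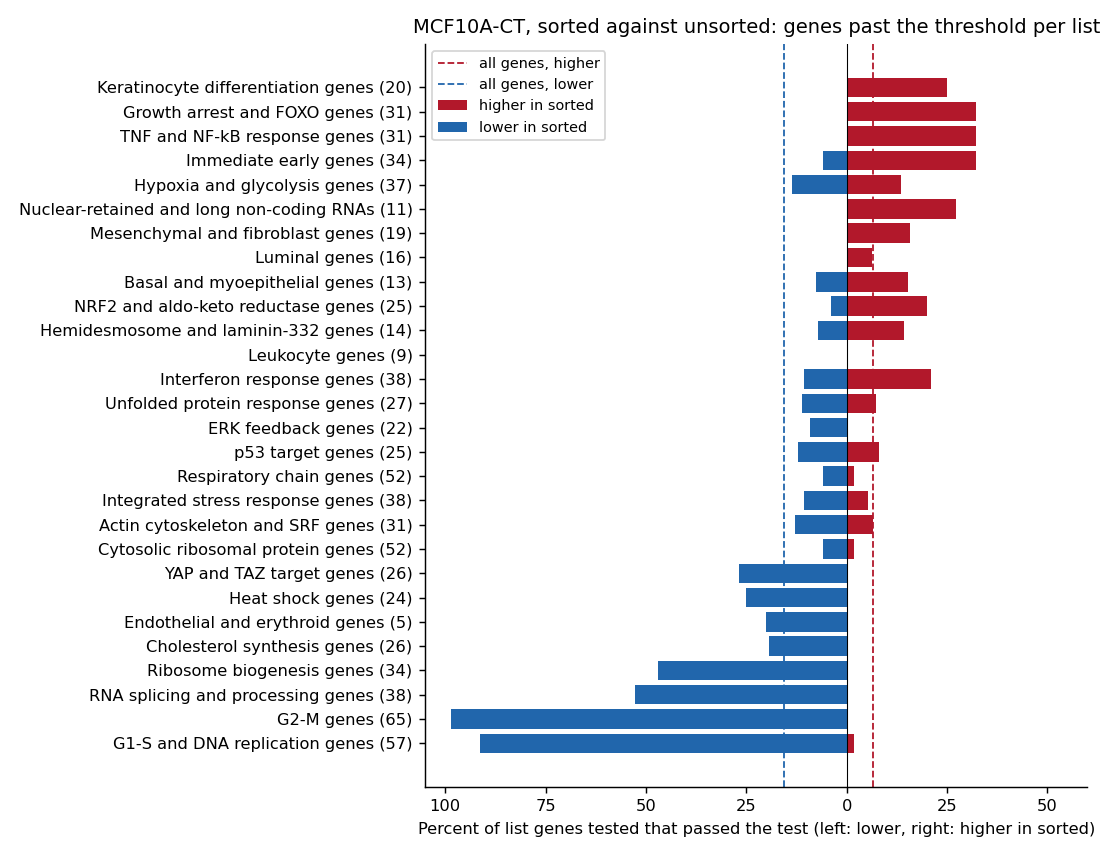
Percent of the genes tested in each list (number in parentheses) that passed in sorted against unsorted MCF10A-CT cells, with lower genes to the left and higher genes to the right, ordered by the list's median. Dashed lines mark the share over all genes, 15.7% lower and 6.58% higher; both cell cycle lists lie far to the left, and no list lies to the right beyond the growth arrest, NF-kB and immediate early lists, with 10, 10 and 11 higher genes.

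Of 20 keratinocyte differentiation genes tested, 5 rose and none fell (median 0.56), against 6.58% higher over all genes. S100A8 and S100A9, which form calprotectin, were the brightest. S100A8 was 10160 and 10810 in CD10- cells and 11300 and 10850 in CD10+ cells, against 3303 and 1545 in unsorted cells (2.25 ± 0.23, adjusted p = 8.96e-05, limma). S100A9 was 7290 and 8548 in CD10- cells and 8267 and 7989 in CD10+ cells, against 1943 and 1002 in unsorted cells (2.52 ± 0.27, adjusted p = 9.53e-05). In both, sorted arrays lay within a narrow range that the unsorted arrays did not reach.

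KRT16, a keratin of activated epidermis, was 145 and 81.8 in CD10- cells and 325 and 99.3 in CD10+ cells, against 10.7 and 31.7 in unsorted cells (2.85 ± 0.55, adjusted p = 0.00307, limma). The serpins SERPINB3 and SERPINB4 rose by 1.78 and 2.73, with SERPINB4 near background in unsorted cells. None of these 5 genes encodes involucrin or a small proline-rich protein of the cornified envelope. In MC26 S100A8 differed by -0.99 and S100A9 by -0.55, in M1B26 by -0.64 and -0.49, and both genes passed the tests between lines (adjusted p = 0.000639 and 0.00247 for MCF10A-CT minus MC26, 0.000713 and 0.00121 for MCF10A-CT minus M1B26). With the averaged pairs, the adjusted p of S100A8 and S100A9 was 0.0254 and 0.0306 against MC26 and 0.0156 and 0.0179 against M1B26.

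Of 34 immediate early genes tested, 11 rose and 2 fell (median 0.44), against 6.58% higher and 15.7% lower over all genes. JUN, a subunit of AP-1, was 1685 and 2719 in CD10- cells and 1426 and 2458 in CD10+ cells, against 663 and 379 in unsorted cells (2.00 ± 0.35, adjusted p = 0.00187, limma). BTG1, which restrains proliferation, was 981 and 2575 in CD10- cells and 1329 and 2250 in CD10+ cells, against 633 and 663 in unsorted cells (1.35 ± 0.34, adjusted p = 0.0114). KLF10, RHOB, TRIB1 and IER2 rose by 0.95, 1.56, 1.19 and 0.76. In JUN and BTG1 the arrays of sort 2 were highest, and the groups did not overlap.

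FOS, named after its value was seen, differed by 0.86 ± 0.66 with overlapping arrays (1998 to 3257 in sorted, against 2107 and 925 in unsorted cells), and the genes that fell were FOSL1 and PLK2, also named on that ground. With sort 1 alone 2 genes of the list rose (2.36% over all genes) and with sort 2 alone 16 rose (8.98%). Without the first unsorted array 4 rose (2.75%), and without the second 1 (2.32%). With quantile normalization 13 rose and none fell. Of 22 ERK feedback genes 2 fell, EPHA2 by 0.86 and the ETS factor ETV5 by 1.07, and none rose.

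Of 31 TNF and NF-kB response genes tested, 10 rose and none fell (median 0.46), against 6.58% higher over all genes. NFKB2, a subunit of NF-kB, was 81.0 and 106 in CD10- cells and 90.6 and 118 in CD10+ cells, against 17.4 and 39.0 in unsorted cells (1.87 ± 0.30, adjusted p = 0.00114, limma). TNFAIP3, the feedback inhibitor A20, was 732 and 788 in CD10- cells and 746 and 742 in CD10+ cells, against 377 and 194 in unsorted cells (1.47 ± 0.26, adjusted p = 0.00190). SOD2, the mitochondrial superoxide dismutase, was 778 and 768 in CD10- cells and 846 and 798 in CD10+ cells, against 435 and 132 in unsorted cells (1.73 ± 0.34, adjusted p = 0.00317). The groups did not overlap in these genes, and the second unsorted array was the lower one in TNFAIP3 and SOD2.

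That array was low in the list as a whole. The mean level of the NF-kB list was -0.08 and -0.19 in CD10- cells and 0.09 and -0.10 in CD10+ cells, against -0.21 and -1.14 in unsorted cells. Without the second unsorted array 4 genes rose, 3 fell and the median was 0.27; without the first, 11 rose and the median was 0.99. The adhesion molecule ICAM1 rose by 1.35, NFKBIE, an inhibitor of NF-kB, by 1.23, and KYNU, an enzyme of tryptophan breakdown, by 0.96. The median of this list was 0.61 in MC26 and 0.10 in M1B26, and in the tests between lines 2 of its genes were more positive and 1 more negative in MCF10A-CT against MC26, and 6 and 1 against M1B26 (over all genes 2.04% and 2.73% were more positive).

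Of 38 RNA splicing and processing genes tested, 20 fell and none rose (median -0.66), against 15.7% lower over all genes. HNRNPA2B1, a nuclear RNA-binding protein, was 4695 and 3515 in CD10- cells and 4188 and 3214 in CD10+ cells, against 8628 and 8975 in unsorted cells (-1.19 ± 0.16, adjusted p = 0.000347, limma). TRA2A, a regulator of splicing, was 363 and 184 in CD10- cells and 407 and 202 in CD10+ cells, against 1063 and 885 in unsorted cells (-1.83 ± 0.29, adjusted p = 0.00103). SF1, HNRNPH1, HNRNPD and SRSF6 fell by 1.53, 0.72, 1.10 and 1.37. In the probe sets tested, no sorted array reached an unsorted one in any of these 6 genes, and sort 2 was lowest in TRA2A. Further probe sets of 4 of them had differences above 0. One of HNRNPH1 was 2911 and 3130 in CD10- cells and 2995 and 2803 in CD10+ cells, against 1927 and 1828 in unsorted cells, a difference of 0.66. One of HNRNPD differed by 0.44, one of SF1 by 0.52 and a pair of TRA2A by 0.31 and 0.38, with overlapping arrays in each.

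Of 34 ribosome biogenesis genes tested, 16 fell and none rose (median -0.53), against 15.7% lower over all genes. RRP1B, a nucleolar protein, was 1447 and 983 in CD10- cells and 1611 and 970 in CD10+ cells, against 3442 and 2596 in unsorted cells (-1.29 ± 0.24, adjusted p = 0.00221, limma). UTP4, BYSL, TCOF1, NOLC1 and PA2G4, which act in the making of ribosomal subunits, fell by 1.08, 1.25, 1.05, 0.81 and 0.90. With sort 1 alone 11 splicing and 3 ribosome biogenesis genes fell, and with sort 2 alone 24 and 22 (over all genes 5.92% and 23.7% fell with either sort alone). The numbers were 8 and 6 without the first unsorted array (4.32% over all genes), and 11 and 5 without the second (7.05%). Of 52 genes for cytosolic ribosomal proteins 1 rose and 3 fell, with a median of -0.20. With quantile normalization 7 rose and none fell, and the median was 0.06. Without the first unsorted array the median of these genes was -0.43, and without the second -0.007, against -0.09 and -0.19 over all genes.

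Of 26 YAP and TAZ target genes tested, 7 fell and none rose (median -0.24), against 15.7% lower over all genes. With the averaged pairs 5 fell, against 11.3% lower over all genes. The list median was -0.23 and -0.31 without the first and without the second unsorted array, against -0.09 and -0.19 over all genes. With sort 1 and sort 2 alone it was -0.45 and -0.12, against -0.08 and -0.17 over all genes. CCN2, the matricellular connective tissue growth factor, was 89.4 and 81.8 in CD10- cells and 105 and 65.6 in CD10+ cells, against 338 and 546 in unsorted cells (-2.34 ± 0.33, adjusted p = 0.000515, limma). F3, tissue factor, fell by 1.90 and was 484 and 196 in CD10- cells and 551 and 242 in CD10+ cells, against 1205 and 1311 in unsorted cells. AJUBA, CAVIN2, CRIM1 and AMOTL2 fell by 1.37, 1.75, 0.80 and 1.13. The difference of CCN2 was 0.81 in MC26 and 0.19 in M1B26, and it passed the tests between lines (adjusted p = 0.00414 and 0.00683, limma, and 0.0306 and 0.0309 with the averaged pairs). The adjusted p against M1B26 was 0.0693 without the first unsorted M1B26 array.

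Of 24 heat shock genes tested, 6 fell and none rose (median -0.31), against 15.7% lower over all genes. These were HSPE1, HSPA4L, HSPA4, CACYBP, HSPH1 and HSP90AA1, by 0.78 to 1.02. With the averaged pairs 4 fell, against 11.3% lower over all genes. The list median was -0.43 without the first unsorted array and -0.42 without the second, against -0.09 and -0.19 over all genes. HSPA6, a strictly inducible HSP70 named after its values were seen, did not pass but split the sorts. It was 23.0 and 2056 in CD10- cells and 23.8 and 1035 in CD10+ cells, against 24.2 and 7.62 in unsorted cells. Both arrays numbered 2 were high, and those numbered 1 were at the level of an unsorted array. The list median was -0.54 with sort 1 alone and -0.24 with sort 2 alone.

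Of 37 hypoxia and glycolysis genes tested, 5 rose and 5 fell, against 6.58% and 15.7% over all genes. With the averaged pairs 2 rose and 4 fell, against 4.19% and 11.3% over all genes. The list median was 0.29 without the first unsorted array and 0.14 without the second, against -0.09 and -0.19 over all genes. The glycolytic enzymes PGAM1, PGK1 and TPI1 and the kinase PDK1 fell by 0.48 to 0.74, and BNIP3L, of mitophagy, and NDRG1, a stress-induced gene, rose by 1.54 and 1.71. NDRG1 was 2885 and 5439 in CD10- cells and 2328 and 4260 in CD10+ cells, against 990 and 1175 in unsorted cells. Of 26 genes of the cholesterol synthesis list 5 fell and none rose (median -0.46), against 15.7% lower over all genes. Among them were FDPS, and FASN and ACLY, which the list also holds but which act in fatty acid and general lipid synthesis. With quantile normalization and with the averaged pairs 1 fell, against 13.1% and 11.3% lower over all genes. The list median was -0.50 and -0.55 without the first and without the second unsorted array. With sort 1 and sort 2 alone it was -0.21 and -0.79. FDPS, farnesyl diphosphate synthase, was 3849 and 1767 in CD10- cells and 3684 and 1543 in CD10+ cells, against 5605 and 5708 in unsorted cells. Of 25 NRF2 and aldo-keto reductase genes 5 rose and 1 fell, with AKR1C3, which reduces steroids and prostaglandins, at 3039 and 3834 in CD10- cells and 3762 and 3864 in CD10+ cells, against 1572 and 1042 in unsorted cells (1.49 ± 0.22, adjusted p = 0.000619, limma).

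Among 38 integrated stress response genes 2 rose and 4 fell, against 6.58% higher and 15.7% lower over all genes. The same shares apply to each list that follows here. The amino acid transporters SLC7A5, SLC7A11 and SLC1A5 fell by 1.18, 1.56 and 1.11, and PPP1R15A, which reverses the block of translation, rose by 1.51. Of 27 unfolded protein response genes 2 rose and 3 fell, with the chaperone PDIA3 higher by 1.42 and DNAJB11 lower by 1.20. Of 38 interferon response genes 8 rose and 4 fell (median 0.02), against 6.58% and 15.7% over all genes. Of these genes, without the first unsorted array none rose or fell, and without the second 2 rose and none fell. HLA-E, HLA-F, IFITM2 and IFITM3 rose by 0.93, 0.86, 0.73 and 0.68, and SAMD9 and OAS3 fell by 1.41 and 0.81. Of 25 p53 target genes 2 rose (ZMAT3 and TNFRSF10B) and 3 fell (TIGAR, POLH and MDM2), and of 52 respiratory chain genes 1 rose and 3 fell. Of 11 nuclear-retained and long non-coding RNAs 3 rose and none fell (median 0.19). With the averaged pairs 1 rose, against 4.19% higher over all genes. The list median was 0.08 and 0.34 with sort 1 and sort 2 alone, and 0.42 and 0.24 without the first and without the second unsorted array. EPB41L4A-AS1, a long non-coding RNA, differed by 0.98 in the probe set tested and by -2.11 in the one of largest variance. ZFAS1 also changed sign with the probe set of largest variance.

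Of 31 actin cytoskeleton and SRF genes 2 rose and 4 fell, and of 14 hemidesmosome and laminin-332 genes 2 rose and 1 fell. Over all genes 6.58% were higher and 15.7% lower. ACTB itself, read at its 3′ end, was 7673 and 9469 in CD10- cells and 7730 and 7480 in CD10+ cells, against 10550 and 16820 in unsorted cells (-0.73 ± 0.16, adjusted p = 0.00598, limma). Its 5′ control probe set, in contrast, overlapped between the groups, at 5820 to 7203 in sorted cells, against 5314 and 7221 in unsorted cells. The middle probe set gave a 3′ over middle difference of -0.052. ITGB4, an integrin of hemidesmosomes, rose by 1.42, ITGA5, the fibronectin receptor subunit, by 1.62, and DST, a linker to keratin filaments, fell by 1.79.

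The cells kept mammary epithelial markers in both groups. CDH1, E-cadherin, was 1330 to 1669 in sorted and 1354 and 1229 in unsorted cells. KRT5, a basal keratin, was 4368 to 5893 in sorted, against 5401 and 7924 in unsorted cells, and EPCAM 2024 to 2811, against 3620 and 2902. None of CDH1, CDH3, EGFR, EPCAM, KRT5, KRT14 and VIM passed, which with so few arrays does not show that they were unchanged. KRT14 differed by 1.06 ± 0.48, and its unsorted arrays read 312 and 878. EGFR differed by -0.55 ± 0.20, with every sorted array below both unsorted ones. KRT17 and TP63, also chosen as epithelial markers, were not among the genes tested. Of 13 basal and myoepithelial genes tested 2 rose and 1 fell, and of 16 luminal genes 1 rose, ELF3, an epithelial ETS factor. Of 19 mesenchymal and fibroblast genes 3 rose: LOX, lysyl oxidase, by 1.83, the collagen COL6A1 by 1.42 and the factor TWIST1 by 1.36. Of the probe sets of COL6A1, only the probe set tested lay above the filter level. Over all genes 6.58% were higher and 15.7% lower, to be set beside the counts of these lists.

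Many of the listed markers of cell types that the culture should lack lay under the filter level of 14.3, called near background here. The summed intensity of 23 leukocyte genes was 676 to 813 in sorted, against 489 to 652 in unsorted cells. It was thus higher on every sorted array than on either unsorted one. In sorted and unsorted cells 12 and 13 of these genes were near background, and none of the 9 tested passed. For 14 endothelial and erythroid genes it was 214 to 272, against 307 to 310, with 9 and 10 genes near background. Of the 5 tested, 1 fell, ENG, the coreceptor endoglin, by 0.79, against 15.7% lower over all genes. A pair of genes best known from blood cells but on neither list rose, and they are set here after their values were seen. LAPTM5, given above, was 892 to 2167 in sorted cells, against 134 and 72.7 in unsorted cells. TAL1, a transcription factor of early blood cells, was 45.0 and 31.5 in CD10- cells and 32.8 and 46.1 in CD10+ cells, against 3.84 and 4.51 in unsorted cells, near background there. Sorted minus unsorted, it differed by 2.93, by 2.84 in the MC26 line and by 2.34 in M1B26.

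MME, the gene of CD10, followed the sort labels. It was 48.3 and 65.0 in CD10+ cells and 9.73 and 11.3 in CD10- cells, against 12.7 and 5.95 in unsorted cells. Taken as a mean of both sorted populations, the difference was 1.39 ± 0.55 (adjusted p = 0.0832, limma), and it did not pass. The unsorted arrays were at the level of CD10- cells, near background.

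ENI10 is the gene signature that the study drew from the CD10+ and CD10- arrays used here, so it is not independent of these samples. Of 147 of its genes tested, 23 rose and 64 fell in sorted against unsorted cells (median -0.27). Over all genes 6.58% were higher and 15.7% lower. Outside the cell cycle lists and its own cell division part, 23 of 96 rose and 14 fell (median 0.36). The part that fell there is near the share over all genes. SFTPB, C1R, C1S, CFB and CYP1B1, a cytochrome P450 that rose by 2.31 ± 0.24, were the members with the smallest p among those that rose, and HMMR among those that fell. Against the same unsorted arrays, the median of ENI10 was -0.40 for CD10- cells and -0.18 for CD10+ cells.

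A small group of genes passed in all 3 lines, with 27 higher and 9 lower in sorted cells. Differences are given for MCF10A-CT, MC26 and M1B26 in that order of lines. CTSZ, the lysosomal protease cathepsin Z, differed by 1.98, 1.63 and 2.24, MVP, the major vault protein, by 1.94, 1.33 and 1.72, and PDIA3 by 1.42, 1.27 and 1.72. NFKB2 differed by 1.87, 1.77 and 1.35, and HINT3 by 3.26, 2.18 and 1.54. Among the lower genes, MRPL32, of the mitochondrial ribosome, differed by -1.24, -1.04 and -0.71, and OGDH, of the citric acid cycle, by -1.03, -1.30 and -0.86. All of these were named after their values were seen, except HINT3, NFKB2 and PDIA3. The ACTB ratio, the poly-A spikes and the 18S signal differed in the same direction in all 3 lines, and their part in these 36 genes was not tested.

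Between lines, the widest contrasts also included S100P and DKK1. S100P, a calcium-binding protein, was 537 and 672 in CD10- cells and 893 and 707 in CD10+ cells of MCF10A-CT, against 91.1 and 94.8 in unsorted cells (2.88 ± 0.63, adjusted p = 0.00605, limma). In MC26 its difference was -2.91 and in M1B26 -2.49 (adjusted p = 0.0472 and 0.0377), so that it was higher in sorted cells of MCF10A-CT and lower in sorted cells of both derived lines. With the averaged pairs it passed in MCF10A-CT (0.0225) and not in MC26 (0.141) or M1B26 (0.105), and its tests between lines gave 0.0436 against MC26 and 0.0295 against M1B26. Its adjusted p in MCF10A-CT was 0.0595 without the first unsorted array. DKK1, an inhibitor of WNT signalling, was 200 and 122 in CD10- cells and 629 and 280 in CD10+ cells, against 1549 and 1915 in unsorted cells (-2.74 ± 0.49, adjusted p = 0.00204). Its difference was 0.95 in MC26 and 0.78 in M1B26, neither of which passed.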

How the data were processed

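Total RNA of 18 samples was hybridised to Affymetrix HG-U133 Plus 2.0 arrays, with 2 arrays in each of 9 groups. The deposited values are linear intensity values per probe set, which per the labels the authors made with Affymetrix Expression Console and MAS5 (versions not given in the sources used here), and the median intensity of every array was 16.65. The methods of the study name RMA and quantile normalization, which the deposited values do not hold. Intensities were turned into log2(intensity + 1). Of 54675 probe sets, 41091 had 1 gene symbol in the platform annotation, 1801 several and 11721 none. Each gene was read by 1 probe set, and 12166 genes passed a filter on dim genes at an intensity of 14.3. A linear model of the 9 groups was fitted with limma 3.58.1 in R 4.3.3, with eBayes and Benjamini-Hochberg adjustment over all genes tested and a threshold of 0.05. Sorted cells were the mean of CD10- and CD10+ cells with equal weight. The control ratios were compared by two-sided exact permutation tests. On simulated data, 38 of 100 genes changed by 1 on the log2 scale and 88 of 100 changed by 2 were recovered, with 9 false calls. The simulated arrays were drawn independently and few genes were changed. In MCF10A-CT, deviations of CD10- and CD10+ arrays of one number correlated at 0.64, so these rates need not hold for the real arrays.

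The genes named are the 15 largest increases and 15 largest decreases that passed, did not overlap between groups and reached an intensity of 100 in the higher group, up to 6 passing genes with the smallest p from each of 29 lists, MME, ACTB and GAPDH, and the 5 widest differences each way between lines. Others are said to be named after their values were seen, and PLK1, the epithelial markers and list members named without a test were also outside this rule. The comparison, the members and the lists were chosen with earlier results of these data known. Promoters were taken from RefSeq (GRCh38.p14), and 7811 entries of genes with more than one start were left out. Alternatives changed the scaling, pseudocount, filter, probe set, arrays in the fit, moderation, block, covariate and replicates.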

Additional observations from a re-analysis of the deposited data

Results flagged for a closer look

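The sorted minus unsorted difference was not the same in MCF10A-CT as in the derived lines for 739 genes against MC26 and 1444 genes against M1B26, by limma's test of the difference between lines. These values are MCF10A-CT minus the other line, on the log2 scale. With the CD10- and CD10+ arrays of one number averaged, 33 and 497 genes differed, and with an unmoderated test 41 and 559.

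Against MC26, the 5 widest positive differences were CHI3L1 (9.65), S100P (5.79), LEMD1 (5.03), SERPINA3 (4.74) and LAPTM5 (4.52). CHI3L1 differed by 6.09 in MCF10A-CT and by -3.55 in MC26, and its unsorted MCF10A-CT arrays were near background. The 5 widest negative differences were MCM10 (-4.39), CDC25A (-3.84), CDC45 (-3.80), FEN1 (-3.74) and DKK1 (-3.69).

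Against M1B26, the 5 widest positive differences were TMEM61 (6.21), S100P (5.38), MIR200CHG (5.17), IL1RL1 (4.62) and MIR205HG (4.49). The 5 widest negative differences were MCM10 (-4.54), CCNE2 (-4.32), RRM2 (-4.04), PYCR3 (-3.99) and CDC25A (-3.92). MCM10, CDC25A and S100P were among the widest against both lines, and both tests share the MCF10A-CT arrays. The sizes of TMEM61 and IL1RL1, near background in unsorted MCF10A-CT cells, and of PYCR3, near background in sorted ones, are uncertain. Against the filter level TMEM61 and IL1RL1 were at least 7.79-fold and 9.49-fold higher in sorted than in unsorted MCF10A-CT cells, and PYCR3 at least 4.70-fold lower.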

How the results depend on the processing

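Of 2706 genes that passed in MCF10A-CT, 0 passed with the ACTB ratio as covariate (911 at an unadjusted p under 0.05), 726 with the GAPDH ratio, 1144 with only the line compared and 1007 with sort 1 alone. Leaving out 1 array gave 859 to 3432, lowest without the first unsorted array, then 1140 without the second, 1479 without CD10+ replicate 2 and 1701 without CD10- replicate 2. Quantile normalization (2977), centring (2919), a pseudocount of 16 (2803), no filter (2352), a level of 100 (2355), the probe set of largest variance (2237), an unmoderated test (1934), averaging each pair (1883) and sort 2 alone (3976) stayed within 1.5 times. The averaged pairs and single sorts were chosen after seeing the data.

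CD10- cells had 1597 genes, against 432 with only the line compared, 860 unmoderated, 0 and 368 with the ACTB and GAPDH covariates, and 244 to 2524 with 1 array left out. CD10+ cells had 1670, against 464, 896, 0 and 239 in the same settings, and 126 to 2131. MC26 had 100, with 162 after quantile normalization, 192 centred, 336 with the probe set of largest variance, 61 with only the line compared, 55 unmoderated, 0 with ACTB, 22 averaged and 38 to 133 with 1 array left out. M1B26 had 513, with 831 for the probe set of largest variance, 5 with ACTB, 238 averaged and 85 to 440 with 1 array left out.

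For MCF10A-CT minus MC26 the count was 739, with 1167 after quantile normalization, 436 with only the lines compared, 41 unmoderated, 113 with GAPDH, 33 averaged, 344 and 2266 with sort 1 and sort 2 alone, and 113 to 1464 with 1 array left out. For MCF10A-CT minus M1B26 it was 1444, with 559 unmoderated, 359 with GAPDH, 497 averaged, 703 and 3122 with sort 1 and sort 2 alone, and 98 to 2412 with 1 array left out.

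With the replicate block within line, 3433 genes passed in MCF10A-CT, 2473 in CD10- cells, 2565 in CD10+ cells, 277 in MC26, 1486 for MCF10A-CT minus MC26 and 2438 for MCF10A-CT minus M1B26. The numbers did not pair all samples: deviations of same-numbered arrays correlated at 0.64 between CD10- and CD10+ cells, but at 0.05 and -0.01 between unsorted cells and either.

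The ACTB ratio difference was -0.74 to -0.61 with 1 array left out and -0.052 for 3′ over middle. The GAPDH difference was -0.21 to -0.024, and for 3′ over middle it was reversed, at 0.058. Of 163 named genes 160 had passed, and none of them passed with the ACTB covariate. The median SE was 0.645 in that fit, and none of the reversed differences passed. The sign of the difference reversed in 19: TMEM61 (-1.31), LAPTM5 (-0.79), HSPA4L (0.37), HSPH1 (0.51), AMOTL2 (0.20), MYL6 (0.042), ACTA2 (-0.39), ACTN4 (0.15), NSDHL (0.30), FASN (0.38), ACLY (0.0071), NDRG1 (-0.069), ICAM1 (-0.42), ABCC3 (-0.88), CAV1 (0.42), TCOF1 (0.013), PA2G4 (0.086), DKK1 (0.19) and CCNE2 (0.38). With the probe set of largest variance CRIM1 (0.45), NDUFB8 (0.10), ZFAS1 (-1.64) and EPB41L4A-AS1 (-2.11) reversed. The cause was not tested. Dim genes near the filter level and 2 arrays per group limit what could be detected.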
